A study of Mus musculus with 14 samples.

Results

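The PCTAIRE and PFTAIRE kinases and their cyclin partners were followed in mouse liver tumours, as 7 of the 77981 genes in the deposited count table. The rule takes genes by name and function and uses no measured value: the PCTAIRE kinases Cdk16, Cdk17 and Cdk18, the PFTAIRE kinases Cdk14 and Cdk15, and the cyclins Ccny (cyclin Y) and Ccnyl1 (cyclin Y-like 1). The filter on low counts kept 13997 genes, among them 6 of the 7; Cdk15 did not pass it and was not tested.

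Counts of polyadenylated RNA at its 3′ end came from 14 tumours, which the series describes as biological replicates. The 4 DKO tumours carried knockouts of both Cdk16 and Cdk18, the 5 CDK18KO tumours a knockout of Cdk18, and the 5 WT tumours neither. In each group, tumours were raised by injecting plasmids that encode c-Myc and β-catenin of the mouse into the bloodstream under pressure, a way to bring DNA into hepatocytes. Cdk16 was removed from tumours that had already formed, in mice with floxed Cdk16 (Cdk16 fl/fl) and Cre-ERT2, a recombinase that tamoxifen switches on. Tamoxifen was given at 75 mg/kg on 5 days in a row, also to Cre-ERT2 controls, and tissue was taken 10 days after the last dose. Tumours were otherwise collected at 15 mm, at signs of distress or at 8 weeks. Which groups are the Cre-ERT2 controls, the promoter behind Cre-ERT2, how the Cdk18 allele was disrupted, and the animals' ages and sexes are not given in the sources used here. A tumour also holds host cells that took up no plasmid, and in bulk tissue fewer cells of a type and less RNA per cell cannot be told apart.

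These 5 kinases are a branch of the cyclin-dependent kinase family named after the amino-acid motif in the helix that contacts the cyclin, where classical cell-cycle kinases such as CDK1 and CDK2 carry PSTAIRE. CDK14 and CDK16 are switched on mainly at membranes by cyclin Y or cyclin Y-like 1, and 14-3-3 proteins help to hold both with cyclin Y. CDK14 with cyclin Y phosphorylates the Wnt co-receptor LRP6, CDK16 with cyclin Y is needed to form sperm in mice and acts in autophagy downstream of AMP-activated kinase, and CDK18 has been tied to the ATR replication stress response in human cells.

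The stretches of coding sequence that spell the family's name are shown because they separate the PCTAIRE from the PFTAIRE genes. They were read 5′ to 3′ on the coding strand from the GENCODE M21 transcripts of GRCm38, with the 21 motif bases in capitals and 12 bases before and after in lower case.
Cdk16: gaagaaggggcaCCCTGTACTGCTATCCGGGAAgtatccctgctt
Cdk17: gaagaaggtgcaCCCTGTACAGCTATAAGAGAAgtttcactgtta
Cdk18: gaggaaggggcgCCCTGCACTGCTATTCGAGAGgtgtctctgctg
Cdk14: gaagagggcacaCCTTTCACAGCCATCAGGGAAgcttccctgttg
Cdk15: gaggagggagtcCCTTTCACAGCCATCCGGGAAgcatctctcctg

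The 2 PFTAIRE genes differed at 1 of the 21 motif bases. The 3 PCTAIRE genes differed from each other at 4 or 5 of them, and from the PFTAIRE genes at 5 to 8. The motif lies at codons 205 to 211 of Cdk16, 232 to 238 of Cdk17, 161 to 167 of Cdk18, 175 to 181 of Cdk14 and 141 to 147 of Cdk15. The counts come from the other end of the transcripts. Over the last 500 bases of the 7 transcripts, the longest run shared by any of the 21 gene pairs was 7 to 14 bases, so no pair has a near-identical 3′ end in this annotation.

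All 7 genes are protein-coding, and their places are given in GRCm38. Cdk16 is X-linked (chrX:20687954-20699880, plus strand, 16 exons in the transcript used). Cdk17 lies at chr10:93160875-93267071 on the plus strand with 17 exons, and Cdk18 at chr1:132112237-132139684 on the minus strand with 16 exons. Cdk14 is the longest of the 7 loci, at chr5:4803391-5420312 on the minus strand with 15 exons. Cdk15 lies at chr1:59256906-59352993 on the plus strand with 14 exons. The cyclin genes Ccny (chr18:9312304-9450154, minus strand) and Ccnyl1 (chr1:64690455-64725644, plus strand) have 10 exons each. Of these loci, 3 share exonic bases with a gene on the other strand. Elk3, an ETS-family transcription factor gene, shares 316 bases with Cdk17, Gm29629 shares 86 bases with Cdk18, and 2810408I11Rik shares 205 bases with the start of Ccnyl1. The libraries keep the strand, but no source used here gives the strand setting of the counting. Elk3 stood at 7.12 to 16.7 CPM in DKO, 2.32 to 7.45 CPM in CDK18KO and 6.93 to 12.3 CPM in WT. The bases it shares with Cdk17 (chr10:93265365-93265680) lie before the annotated end of Cdk17 at 93267071. Whether reads of Elk3 entered the Cdk17 counts was not tested. Gm29629 had 1 count in the 14 libraries together. 2810408I11Rik, whose overlap lies away from the counted end of Ccnyl1, stood at 7.44 to 86.2 CPM in DKO, 9.32 to 39.4 CPM in CDK18KO and 5.19 to 15.2 CPM in WT.

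Library totals ran from 1442417 to 6068209 counts. Libraries of 1 group differed widely (common biological coefficient of variation 0.598). Hepatocyte marker genes (27 in the table) summed to between 3079 and 38757 CPM in DKO, 2226 and 25663 CPM in CDK18KO and 324 and 6913 CPM in WT. The medians were 16147 CPM in DKO, 11066 CPM in CDK18KO and 970.5 CPM in WT, and at most 3 of the 27 were at 0 in a library. Y-linked genes summed to above 100 CPM in CDK18KO 1, WT 3 and WT 5 and to at most 33.0 CPM in the other 11 libraries, which makes 0 of 4 DKO, 1 of 5 CDK18KO and 2 of 5 WT libraries. The exons removed from Cdk16 and Cdk18 are not given in the sources used here. The 3′ counts of both genes therefore do not check the genotype labels.

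Levels are given as CPM, counts scaled to a common library total with TMM factors. Because about 1 fragment is counted per transcript at its 3′ end, genes are compared on this scale without dividing by length. Cyclin Y was the most abundant transcript of the 7, with a mean of 123.6 CPM over the 14 libraries, above 86.0% of the genes kept. Cdk17 followed at 50.5 CPM, Cdk16 at 40.9 CPM, Cdk14 at 29.6 CPM, Ccnyl1 at 5.83 CPM, Cdk18 at 2.95 CPM and Cdk15 at 0.629 CPM. Ccny was above Cdk17 in 14 of 14 libraries, whereas Cdk17 was above Cdk16 in 9, Cdk16 above Cdk14 in 11 and Cdk14 above Ccnyl1 in 10. The neighbours from Cdk17 down to Ccnyl1 therefore changed places between tumours. Ccnyl1 was above Cdk18 in 12 libraries and Cdk18 above Cdk15 in 13. Cdk18, 1 of the genes removed in this study, was thus among the least abundant of its family over the 14 libraries, above 3.66% of the genes kept. These means include 9 tumours labelled as Cdk18 knockouts, of which 4 are also Cdk16 knockouts. In WT alone Cdk18 averaged 4.76 CPM, below Ccnyl1 at 6.83 CPM and above Cdk15 at 1.09 CPM. Cdk17 and Cdk16 averaged 49.6 and 49.1 CPM in WT.

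**Figure D1:**
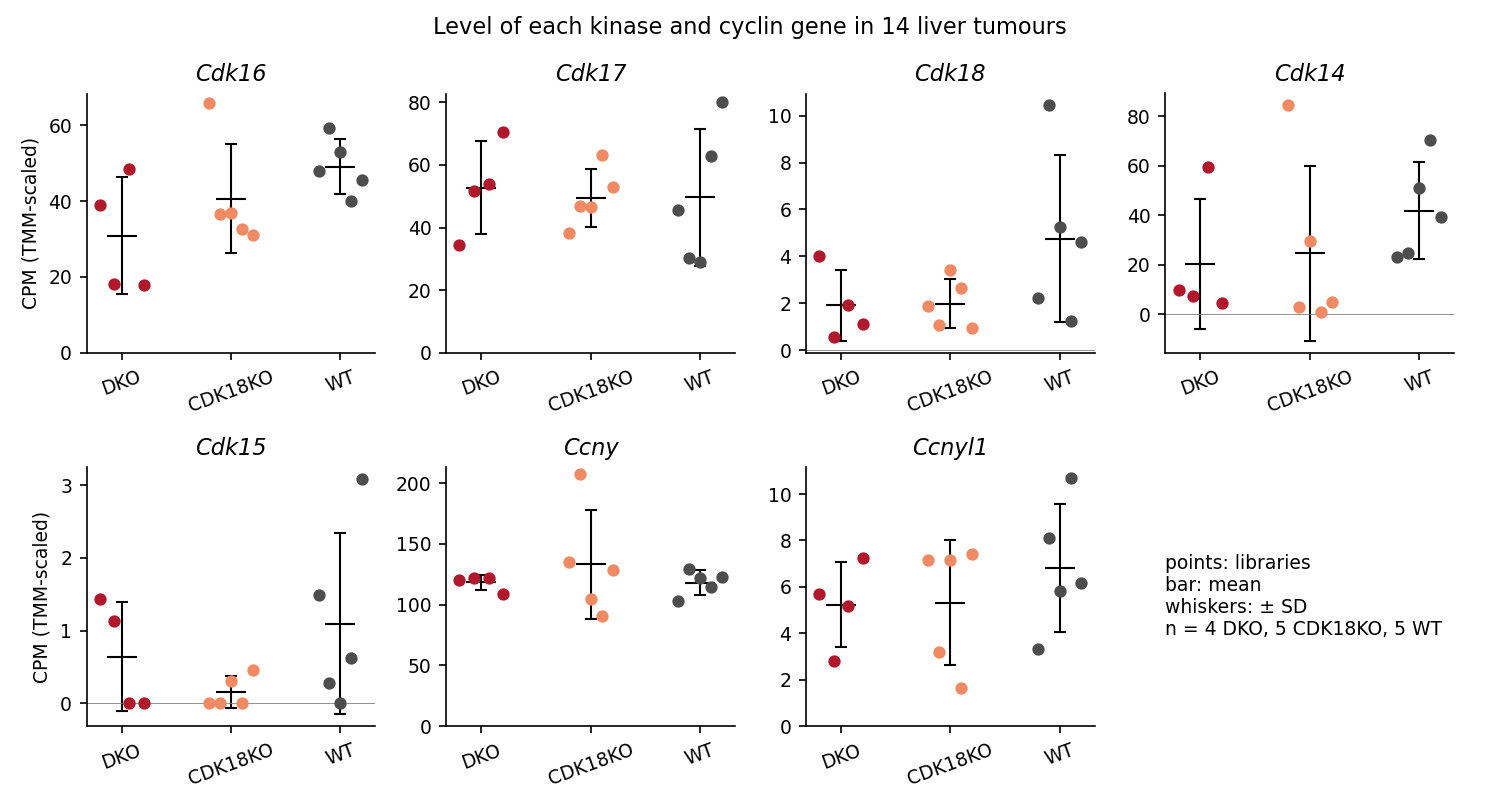
Level of each of the 7 genes in CPM (y axis, TMM-scaled, a separate scale for each gene) in DKO (n = 4), CDK18KO (n = 5) and WT (n = 5) tumours. Points are libraries, the bar is the mean and the whiskers are ± SD; the 3 groups overlap for each gene, and Cdk14 spreads from 0.991 to 84.5 CPM within CDK18KO.

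Cdk16, the PCTAIRE kinase deleted in DKO alone, was still counted in each DKO tumour. It stood at 38.9, 18.0, 48.5 and 17.8 CPM in DKO 1 to 4, at 65.8, 36.7, 37.0, 32.7 and 31.0 CPM in CDK18KO 1 to 5, and at 47.8, 59.2, 53.0, 40.0 and 45.5 CPM in WT 1 to 5. DKO 2 and DKO 4 lay below the 12 other libraries, while DKO 1 and DKO 3 lay inside the range of the tumours with intact Cdk16. The group means were 30.8 ± 15.4 CPM in DKO (SD, n = 4), 40.6 ± 14.3 CPM in CDK18KO (SD, n = 5) and 49.1 ± 7.32 CPM in WT (SD, n = 5). Set against all 10 tumours with intact Cdk16, the DKO level was 0.693 of theirs, with a 95% interval of 0.438 to 1.1 (log2 fold change -0.53, SE 0.31, edgeR adjusted p = 0.521). Against WT alone the log2 fold change was -0.67 (SE 0.35, edgeR adjusted p = 0.31), and against CDK18KO it was -0.39 (SE 0.34, edgeR adjusted p = 0.993). In CDK18KO, where Cdk16 was not deleted, the log2 fold change from WT was -0.27 (SE 0.32, edgeR adjusted p = 0.691). None passed the threshold of an adjusted p under 0.05. An exact two-sided permutation test of the mean log2 CPM, added after the data were seen and not adjusted over genes, gave p = 0.043 for DKO against the intact tumours, where the smallest possible p is 0.002.

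Cdk18, the PCTAIRE kinase knocked out in both knockout groups per the labels, rested on few counts and was counted in each of the 9 knockout libraries. DKO 1 to 4 had 14, 1, 6 and 2 counts, CDK18KO 1 to 5 had 6, 2, 11, 8 and 2, and WT 1 to 5 had 6, 76, 18, 4 and 6. WT 2, the deepest library, held most of the WT counts, and the ranges of the groups overlapped. On the CPM scale Cdk18 averaged 1.95 ± 1.19 CPM in the 9 tumours labelled as Cdk18 knockouts and 4.76 ± 3.58 CPM in the 5 WT tumours (SD). The knockout tumours together were at 0.420 of the WT level, with a 95% interval of 0.189 to 0.936 (log2 fold change -1.25, SE 0.54, edgeR adjusted p = 0.204). The exact permutation test of the mean log2 CPM gave an unadjusted p of 0.0549, with 0.000999 the smallest possible. Without WT 2 the log2 fold change was -0.70. Taken alone against WT, the log2 fold change was -1.26 in DKO (SE 0.68, edgeR adjusted p = 0.331) and -1.24 in CDK18KO (SE 0.63, edgeR adjusted p = 0.338). These comparisons share the WT libraries.

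Cdk17, the PCTAIRE kinase left intact in all groups, is best known from the brain. It stood at 34.3, 51.8, 54.1 and 70.6 CPM in DKO 1 to 4, at 38.2, 46.8, 46.6, 63.1 and 52.8 CPM in CDK18KO 1 to 5, and at 45.6, 30.2, 29.1, 63.0 and 80.2 CPM in WT 1 to 5. The WT tumours spanned the range of both knockout groups, with WT 3 the lowest and WT 5 the highest of the 14. The means were 52.7 ± 14.8 CPM in DKO (SD, n = 4), 49.5 ± 9.21 CPM in CDK18KO (SD, n = 5) and 49.6 ± 22.0 CPM in WT (SD, n = 5). The log2 fold change was 0.09 in DKO against WT (SE 0.33, 95% interval -0.61 to 0.79, edgeR adjusted p = 0.899). In CDK18KO against WT it was 0.00261 (SE 0.31, 95% interval -0.66 to 0.67, edgeR adjusted p = 0.998), with a sign that turned under other scaling factors. A shift of Cdk17 was not detectable at this spread, and the intervals do not show that its level was equal.

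Cdk14, the PFTAIRE kinase that acts on LRP6, varied more between tumours than the 5 other members kept, with a coefficient of variation over the 14 libraries of 93.0%, close to 88.1% for Cdk18 and above 21.8% for Ccny and 29.9% for Cdk17. Within WT, Cdk18 varied more (75.2%) than Cdk14 (46.9%). It stood at 10.0, 7.32, 59.6 and 4.45 CPM in DKO 1 to 4, at 84.5, 3.19, 29.8, 0.991 and 5.10 CPM in CDK18KO 1 to 5, and at 23.4, 25.0, 50.9, 70.6 and 39.3 CPM in WT 1 to 5. Of the 9 knockout tumours, 6 lay at or below 10.0 CPM, under each WT tumour, and the other 3 lay inside or above the WT range. The highest library was 85.3 times the lowest, and both were CDK18KO. The means were 20.3 ± 26.2 CPM in DKO (SD, n = 4), 24.7 ± 35.4 CPM in CDK18KO (SD, n = 5) and 41.8 ± 19.6 CPM in WT (SD, n = 5). The log2 fold change from WT was -1.02 in DKO (SE 1.03, edgeR adjusted p = 0.604) and -0.75 in CDK18KO (SE 0.95, edgeR adjusted p = 0.717). The exact two-sided permutation test of the mean log2 CPM gave larger differences, -1.62 in DKO (unadjusted p = 0.0873) and -1.98 in CDK18KO (unadjusted p = 0.127). The edgeR log2 fold change was -2.51 in DKO without DKO 3, and -2.07 in CDK18KO without CDK18KO 1, again with no adjusted p under 0.05.

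Low Cdk14 went with high hepatocyte markers among the knockout tumours. The 3 knockout tumours with high Cdk14, which are DKO 3, CDK18KO 1 and CDK18KO 3, had the lowest hepatocyte marker sums of the knockout tumours, at 3079, 4145 and 2226 CPM. The 6 with low Cdk14 had sums of 11066 to 38757 CPM, and the WT tumours, all at 23.4 CPM of Cdk14 or more, had 324 to 6913 CPM. With the hepatocyte marker level in the model, the log2 fold change of Cdk14 was 0.45 in DKO (SE 0.97) and 0.24 in CDK18KO (SE 0.82), each against WT. The sign was the opposite, but each value was smaller than its SE. The marker sums differ between the groups, so this model cannot tell genotype and cell composition apart. Stellate cell and fibroblast markers (18 genes) summed to 576 to 1339 CPM in DKO, 58.5 to 1026 CPM in CDK18KO and 574 to 1558 CPM in WT. The part of cell composition in the Cdk14 levels was not tested.

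Some markers of blood and immune cells also differed between the groups of tumours. Neutrophil markers (11 genes) summed to 377 to 552 CPM in DKO, 6.21 to 98.2 CPM in CDK18KO and 46.6 to 284 CPM in WT. B and plasma cell markers (10 genes) summed to 145 to 267 CPM in DKO, 41.3 to 102 CPM in CDK18KO and 37.5 to 95.3 CPM in WT. Xbp1 alone held a large part of this sum, with means of 124 CPM in DKO, 70.0 CPM in CDK18KO and 58.8 CPM in WT. Ighm averaged 14.9, 0.819 and 0.427 CPM in the same order. In each library 3 to 7 of the 10 genes were at 0, so the sum is not a measure of B cell content. Erythroid markers (10 genes) summed to 1748 to 10365 CPM in DKO, 538 to 1940 CPM in CDK18KO and 562 to 2675 CPM in WT. In DKO against the 10 tumours with intact Cdk16, edgeR called 2 of 6 tested neutrophil, 2 of 4 tested B and plasma cell and 1 of 9 tested erythroid markers higher. Over all genes it called 0.0857%. The filter by group can keep a gene for its counts in DKO alone. Ltf, a neutrophil marker, averaged 5.39 CPM in DKO, 0.221 CPM in CDK18KO and 0.464 CPM in WT, and Ighm had a like pattern. Markers kept in this way were tested because they are high in DKO. The called counts therefore cannot be set against the share over all genes. Of 11 tested macrophage and Kupffer cell markers edgeR called 0. Their sums were 171 to 1130 CPM in DKO, 115 to 335 CPM in CDK18KO and 121 to 387 CPM in WT. No T and NK cell marker passed the filter. The neutrophil, B and plasma cell and erythroid sums move with the DKO comparisons of each member, and their part in those results was not tested.

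**Figure D2:**
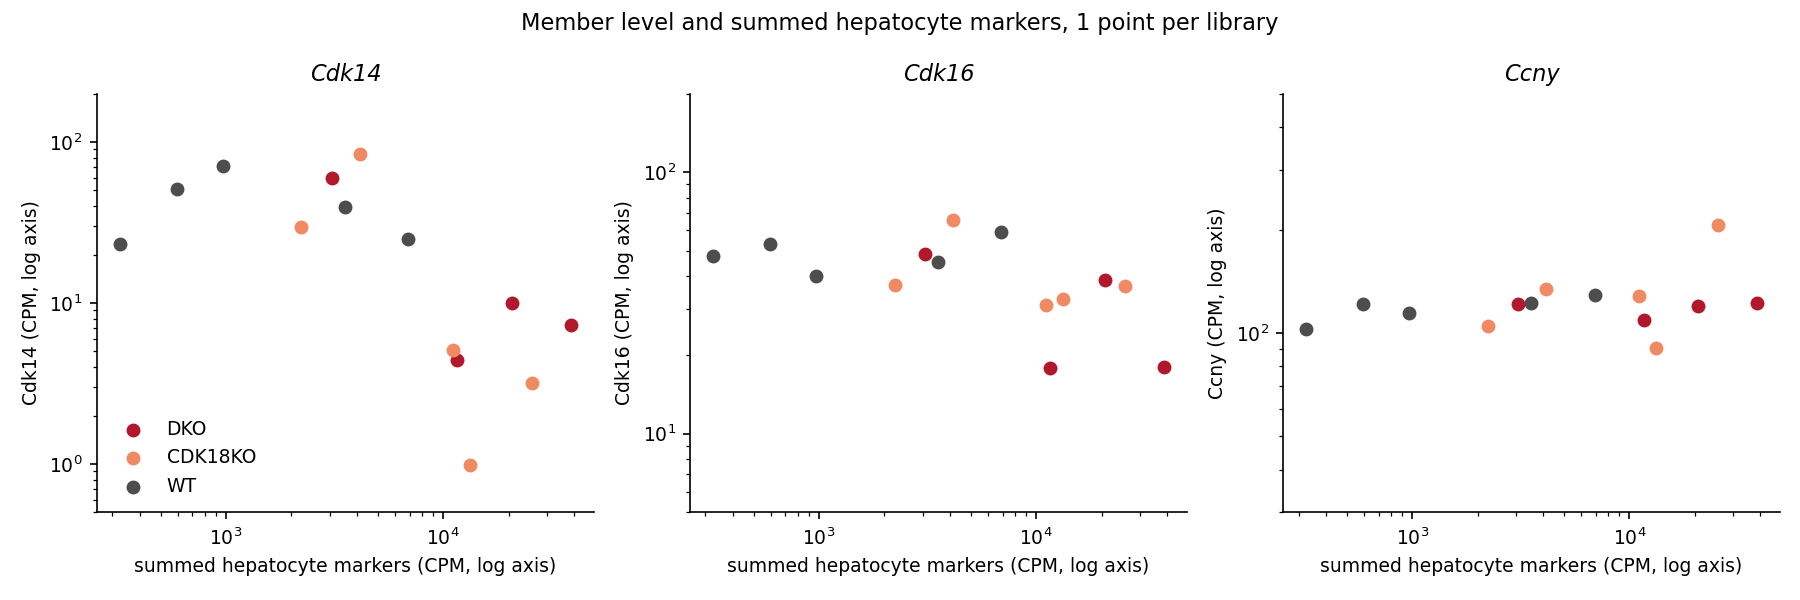
Level of Cdk14, Cdk16 and Ccny (y axes, CPM, log scale) against the summed level of 27 hepatocyte marker genes (x axes, CPM, log scale), 1 point per library, in DKO (n = 4), CDK18KO (n = 5) and WT (n = 5). The 6 libraries with Cdk14 at or below 10.0 CPM sit at hepatocyte sums of 11066 CPM or more, while Ccny stays between 90.5 and 207.4 CPM across the axis.

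Cdk15, the other PFTAIRE kinase, was close to the detection limit. DKO 1 to 4 had 5, 2, 0 and 0 counts of it, CDK18KO 1 to 5 had 0, 0, 1, 0 and 1, and WT 1 to 5 had 4, 2, 0, 2 and 4. That is 7 counts in DKO, 2 in CDK18KO and 12 in WT, and 6 of the 14 libraries had none. No difference between groups can be read at this depth, and Cdk14 carried nearly the whole PFTAIRE signal of these tumours.

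Cyclin Y, the activating partner of CDK14 and CDK16, had the lowest coefficient of variation of the members kept over the 14 libraries pooled. In CDK18KO, though, it was 33.9% for Ccny against 18.6% for Cdk17. Ccny stood at 120.3, 122.3, 122.0 and 108.9 CPM in DKO 1 to 4, at 134.8, 207.4, 104.7, 90.5 and 128.4 CPM in CDK18KO 1 to 5, and at 102.7, 129.0, 122.0, 114.4 and 122.7 CPM in WT 1 to 5. CDK18KO 2 was the highest library and CDK18KO 4 the lowest, and the DKO values lay within the WT range. The means were 118 ± 6.36 CPM in DKO (SD, n = 4), 133 ± 45.2 CPM in CDK18KO (SD, n = 5) and 118 ± 10.1 CPM in WT (SD, n = 5). The log2 fold change was 0.00289 in DKO against WT (SE 0.23, 95% interval -0.50 to 0.50, edgeR adjusted p = 0.995), and its sign turned under other scaling factors. In CDK18KO against WT it was 0.17 (SE 0.22, 95% interval -0.30 to 0.64, edgeR adjusted p = 0.719).

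Ccnyl1, whose product can stand in for cyclin Y in mouse development, was counted at a small fraction of the Ccny level. It stood at 5.71, 2.82, 5.18 and 7.22 CPM in DKO 1 to 4, at 7.14, 3.19, 7.14, 1.65 and 7.41 CPM in CDK18KO 1 to 5, and at 3.34, 8.11, 5.82, 10.7 and 6.17 CPM in WT 1 to 5. The groups overlapped, with the lowest library in CDK18KO and the highest in WT. The log2 fold change was -0.39 in DKO (SE 0.50, 95% interval -1.46 to 0.69, edgeR adjusted p = 0.692) and -0.36 in CDK18KO (SE 0.47, edgeR adjusted p = 0.721), each against WT. Of the summed counts of both cyclins, Ccny made up 95.7 ± 1.63% in DKO, 96.0 ± 2.23% in CDK18KO and 94.6 ± 2.03% in WT (SD over 4, 5 and 5 libraries), and between 91.4% and 98.5% in each of the 14.

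**Figure D3:**
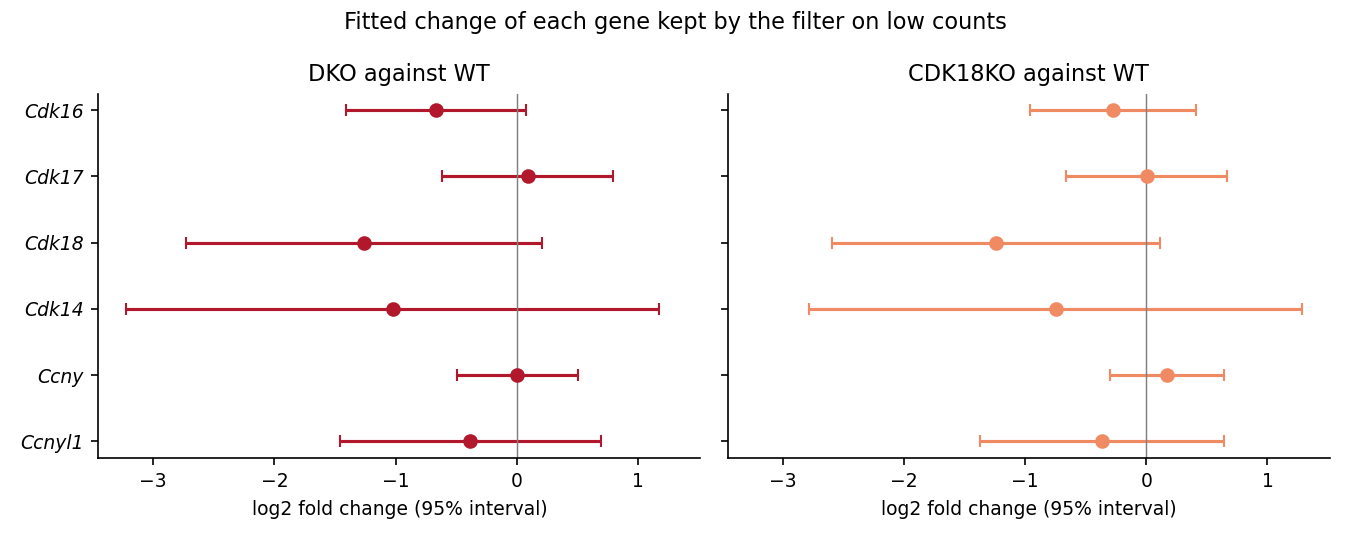
Log2 fold change (x axis, point, with its 95% interval as the bar) of the 6 genes kept by the filter, in DKO against WT on the left and in CDK18KO against WT on the right, from edgeR. The intervals of all 6 genes include 0 in both comparisons, and those of Cdk14 and Cdk18 are the widest.

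Counted over the 6 genes tested, edgeR called 0 in DKO against WT and 0 in CDK18KO against WT, where it called 0.00714% of all genes in each. It called 0 of the 6 in DKO against CDK18KO (0% of all genes), 0 in the 9 knockout tumours against WT (0.0929% of all genes) and 0 in DKO against the 10 tumours with intact Cdk16 (0.0857% of all genes). DESeq2 also called 0 of the 6 in these 5 comparisons, where it called 7.41% of all genes in DKO against WT, 6.14% in CDK18KO against WT, 0.603% in DKO against CDK18KO, 10.6% in the 9 knockout tumours against WT and 0.703% in DKO against the intact tumours. At an unadjusted edgeR p under 0.05 the count was 1 of 6 in the 9 knockout tumours against WT, which was Cdk18, where 21.3% of all genes had such a p and 7.08% were lower with it. It was 0 of 6 in DKO against WT (18.9% of all genes), in CDK18KO against WT (16.9%), in DKO against CDK18KO (5.8%) and in DKO against the intact tumours (11.7%). At these shares a count of 0 or 1 among 6 genes says nothing particular about the family.

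Shares within the family need no library scaling. Of the summed counts of the 5 kinases, Cdk18 made up 1.82 ± 1.27% in the 9 knockout tumours and 3.47 ± 2.94% in the 5 WT tumours (SD), a difference of -1.65 percentage points (exact two-sided permutation test, p = 0.152, smallest possible 0.000999). In single libraries the share ran from 0.714% (95% Wilson interval 0.126 to 3.93%) in DKO 2 to 4.52% (2.71 to 7.44%) in DKO 1 among the knockouts, and from 0.718% (0.280 to 1.83%) in WT 4 to 8.34% (6.72 to 10.3%) in WT 2 among the WT tumours. The difference was -0.44 points without WT 2 (exact permutation p = 0.582) and -2.34 points without WT 4 (exact permutation p = 0.0448). Cdk16 made up 28.8 ± 11% in the 4 DKO tumours and 35.0 ± 7.24% in the 10 tumours with intact Cdk16 (SD), a difference of -6.16 percentage points (exact two-sided permutation test, p = 0.233, smallest possible 0.002). Without DKO 1, whose Cdk16 share of 43.9% was the highest of the DKO tumours, that difference was -11.2 points (exact permutation p = 0.035). Without DKO 4 it was -2.86 points (exact permutation p = 0.605). For neither Cdk16 nor Cdk18 did another run with 1 library left out give an exact permutation p under 0.05.

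Cdk17 had the highest mean share of the 5 kinases in both knockout groups. It made up 53.1 ± 20.5% of the 5 kinases in DKO, 47.0 ± 17.5% in CDK18KO and 33.1 ± 10.4% in WT (SD over 4, 5 and 5 libraries), with ranges that overlapped. Cdk14 made up 15.4 ± 14.2% in DKO, 16.0 ± 18.6% in CDK18KO and 27.8 ± 9.91% in WT. Shares add to a fixed total, and the mean Cdk17 level given above spanned only 49.5 to 52.7 CPM over the groups. These shares were not tested.

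**Figure D4:**
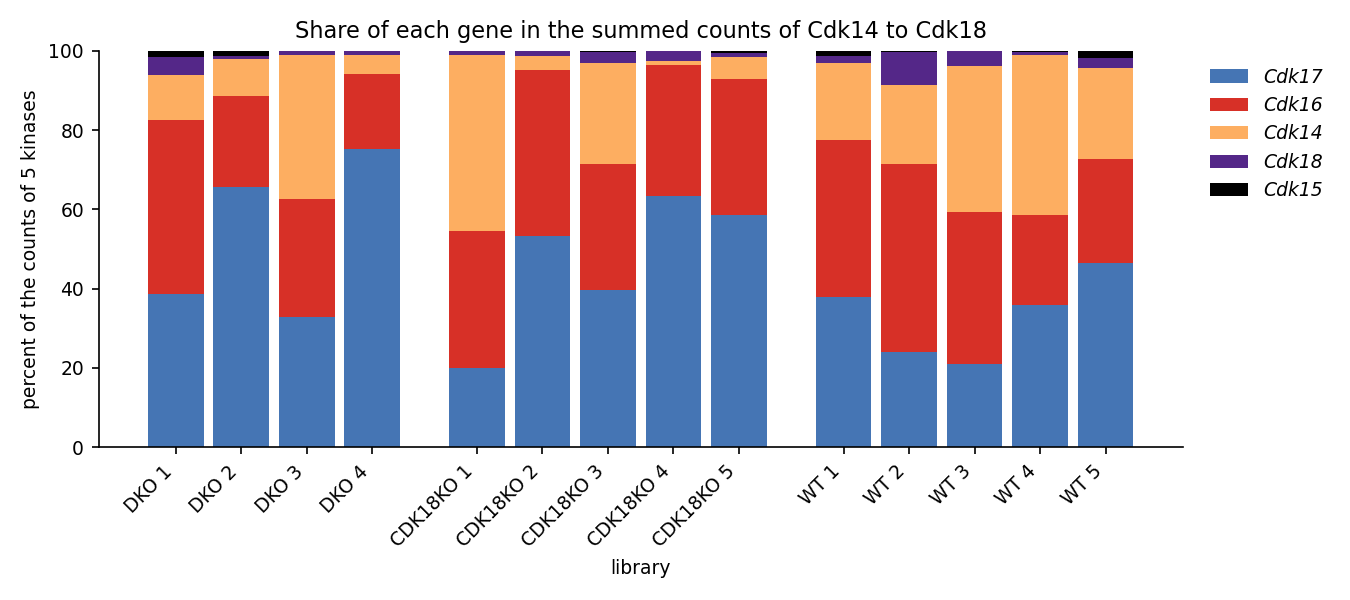
Share of each gene in the summed counts of Cdk14, Cdk15, Cdk16, Cdk17 and Cdk18 (y axis, percent) in each library (x axis), DKO at the left, CDK18KO in the middle and WT at the right. Cdk17 or Cdk16 takes the largest share except in CDK18KO 1, DKO 3 and WT 4, where Cdk14 does, and the Cdk18 share stays at or below 8.34%.

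The genes whose level across the 14 libraries was most like that of each well-counted member are given as a description, since the libraries share their groups and their spread. Cdk14 was followed most closely by Bmp3, a bone morphogenetic protein gene (Pearson r = 0.98 on log2 CPM, Spearman rho = 0.95), and by Tex15, a gene known from male meiosis in mice (r = 0.97, rho = 0.97). Cdk16 was followed by Inafm1 (r = 0.93, rho = 0.90) and Mcrs1 (r = 0.90, rho = 0.87). Cdk17 was followed by Rictor, the defining subunit of mTOR complex 2 (r = 0.90, rho = 0.86), and by Jmjd1c (r = 0.90, rho = 0.84). Ccny was followed by St6gal1, a sialyltransferase gene (r = 0.90, rho = 0.78), and by Tmem86a (r = 0.89, rho = 0.87), and the value for St6gal1 was 0.79 without CDK18KO 2.

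Around the family, edgeR called 0 of the other cyclin-dependent kinases and cyclins in DKO against WT and in the 9 knockout tumours against WT. Of 14 other kinases of the family, 4 were higher and 10 lower in DKO than in WT, with a median log2 fold change of -0.33, against -0.04 for all genes. Over all genes, 52.1% were lower in DKO than in WT and 52.6% were lower in the 9 knockout tumours than in WT. At an unadjusted p under 0.05 there were 0 of the 14 in either comparison, and DESeq2 called 0. Of all genes, 18.9% in DKO and 21.3% in the 9 knockout tumours had such a p, and DESeq2 called 7.41% and 10.6%. Cdk11b, a kinase of splicing and transcription, averaged 139 ± 17.6 CPM in DKO, 164 ± 49.1 CPM in CDK18KO and 198 ± 49.2 CPM in WT (edgeR adjusted p = 0.309 in DKO against WT). Cdk7, the CDK-activating kinase, had a log2 fold change of -0.45 (edgeR adjusted p = 0.359, SE 0.26). Of the 14, 5 were higher and 9 lower in the 9 knockout tumours than in WT. Cdk2, an S-phase kinase, had a log2 fold change of -0.48 there (edgeR adjusted p = 0.343, SE 0.29). With the hepatocyte marker level in the model it was 0.10 (SE 0.35).

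Of 24 other cyclin genes, 21 were tested, and 6 were higher and 15 lower in DKO than in WT, with a median of -0.28. At an unadjusted p under 0.05, 2 were lower in DKO and 1 was lower in the 9 knockout tumours, and DESeq2 called 0 and 1. Over all genes 5.22% and 7.08% were lower at such a p, and DESeq2 called 7.41% and 10.6%. Ccnd1, cyclin D1, a partner of CDK4 and CDK6 and a known Wnt target, averaged 245 ± 106 CPM in DKO, 388 ± 112 CPM in CDK18KO and 450 ± 106 CPM in WT (log2 fold change -0.87 in DKO against WT, SE 0.32, edgeR adjusted p = 0.171). Ccnj, cyclin J, averaged 5.86 ± 3.19 CPM in DKO, 6.87 ± 1.23 CPM in CDK18KO and 11.9 ± 2.82 CPM in WT. Its log2 fold change was -1.01 in DKO against WT (SE 0.42, edgeR adjusted p = 0.214) and -0.90 in the 9 knockout tumours against WT (SE 0.34, edgeR adjusted p = 0.15). For the knockout tumours together DESeq2 gave an adjusted p of 0.0419. Ccnc, the Mediator kinase cyclin, had a log2 fold change of 0.45 there (edgeR adjusted p = 0.241, SE 0.21).

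The Wnt receptor step, where CDK14 with cyclin Y acts on LRP6, was read from 24 Wnt receptor and signalosome genes, of which 23 were tested. Their RNA levels do not measure phosphorylation of LRP6. In DKO against WT 5 were higher and 18 lower, with a median of -0.26. Of the 23, 0 were called by edgeR or DESeq2 in DKO or in the 9 knockout tumours against WT, and 1 was lower at an unadjusted p under 0.05 in each, beside the 5.22% and 7.08% of all genes given above. In CDK18KO against WT 7 were higher and 16 lower, with a median of -0.43; 2 were lower at an unadjusted p under 0.05, and DESeq2 called 1, where it called 6.14% of all genes. Axin1, a scaffold of the complex that degrades β-catenin, averaged 31.2 ± 11.6 CPM in DKO, 45.1 ± 15.2 CPM in CDK18KO and 53.3 ± 14.6 CPM in WT (edgeR adjusted p = 0.235 in DKO against WT). The Wnt receptor gene Fzd4 had a log2 fold change of 0.65 (edgeR adjusted p = 0.355, SE 0.37). In the 9 knockout tumours against WT, the log2 fold change was -1.95 for the receptor gene Fzd9 (SE 0.74, edgeR adjusted p = 0.153) and -1.80 for Fzd10 (SE 0.91, edgeR adjusted p = 0.264). Fzd10 averaged 33.4 ± 44.5 CPM in DKO, 16.1 ± 25.2 CPM in CDK18KO and 81.6 ± 24.5 CPM in WT, an uneven spread in the knockout groups as for Cdk14.

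The 7 genes of 14-3-3 proteins split into 5 higher and 2 lower in DKO than in WT, with a median of 0.11, and into 4 higher and 3 lower in the 9 knockout tumours. In both comparisons 0 were called by edgeR, 0 by DESeq2 and 0 had an unadjusted p under 0.05, where 18.9% and 21.3% of all genes had. Ywhae averaged 475 ± 55.2 CPM in DKO, 622 ± 123 CPM in CDK18KO and 613 ± 69.1 CPM in WT (edgeR adjusted p = 0.33 in DKO against WT). Ywhag had a log2 fold change of 0.35 in DKO (edgeR adjusted p = 0.378, SE 0.21) and 0.28 in the 9 knockout tumours (SE 0.18, edgeR adjusted p = 0.368). Sfn, 14-3-3 sigma, had a log2 fold change of -1.11 in the knockout tumours against WT (edgeR adjusted p = 0.403, SE 0.76).

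Of 16 genes of AMP-activated kinase and of the start of autophagy, 15 were tested, and 11 were higher and 4 lower in DKO than in WT, with a median of 0.33. In the 9 knockout tumours 12 were higher and 3 lower. In each comparison edgeR called 0 of the 15, and 1 was higher at an unadjusted p under 0.05, a smaller share than the 18.9% and 21.3% of all genes at such a p in either direction. Prkaa2, the α2 catalytic subunit of AMP-activated kinase, averaged 174 ± 97.9 CPM in DKO, 180 ± 102 CPM in CDK18KO and 58.5 ± 24.3 CPM in WT. Its log2 fold change was 1.58 in DKO against WT (SE 0.47, edgeR adjusted p = 0.146) and 1.60 in the knockout tumours against WT (SE 0.42, edgeR adjusted p = 0.111). DESeq2 gave adjusted p values of 0.0325 and 0.00483 for these, where it called 7.41% and 10.6% of all genes. With no filter on low counts, edgeR called Prkaa2 in the knockout tumours together (adjusted p = 0.0288), among 716 genes. With the replicate number as a block it called Prkaa2 in both comparisons, among 438 and 752 genes. With the Y-linked gene level in the model edgeR called 0 genes in either comparison, so Prkaa2 was not called. With the hepatocyte marker level in the model it called 2 genes in each, and Prkaa2 was not among them. Ulk2, an autophagy-initiating kinase, had a log2 fold change of 0.49 in DKO (edgeR adjusted p = 0.309, SE 0.25). Prkab1, a regulatory subunit, had 0.64 in the knockout tumours (SE 0.31, edgeR adjusted p = 0.25).

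The replication stress checkpoint, the pathway tied to CDK18 in human cells, was read from 15 genes, all tested. In DKO against WT 1 was higher and 14 lower, with a median of -0.39, against a median of -0.04 for all genes, of which 52.1% were lower. In CDK18KO against WT 5 were higher and 10 lower, with a median of -0.16, against -0.01 for all genes, of which 50.6% were lower. In the 9 knockout tumours together, which hold the DKO libraries, 1 was higher and 14 lower, with a median of -0.38. Of the 15, 0 were called by edgeR and 0 by DESeq2 in these comparisons, and 2 of the 15 were lower at an unadjusted p under 0.05 in DKO, where 5.22% of all genes were. In CDK18KO and in the 9 knockout tumours against WT 0 of the 15 had such a p, where 16.9% and 21.3% of all genes had. The 2 genes lower in DKO were Clspn, which encodes the ATR adaptor claspin, and Chek1, the checkpoint kinase that ATR activates. Clspn averaged 29.9 ± 12.7 CPM in DKO, 54.1 ± 26.5 CPM in CDK18KO and 64.5 ± 10.1 CPM in WT (log2 fold change -1.10 in DKO against WT, SE 0.41, edgeR adjusted p = 0.174). Chek1 averaged 24.9 ± 6.84 CPM in DKO, 42.4 ± 9.96 CPM in CDK18KO and 43.7 ± 13.0 CPM in WT (log2 fold change -0.81, SE 0.31, edgeR adjusted p = 0.175). In the knockout tumours together, the log2 fold change was -0.68 for Clspn (SE 0.33, edgeR adjusted p = 0.252) and -0.54 for Rpa2, a subunit of the single-strand DNA-binding complex (SE 0.31, edgeR adjusted p = 0.32). Hepatocyte marker sums moved with these comparisons too, as given above, and their part in the counts of these lists was not tested.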

How the data were processed

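The deposited table holds raw read counts per gene symbol, made by the authors. Per the submitters' processing notes, the tools include UMI-tools 1.1.2, STAR 2.7.11a and HTSeq 1.99.2; FastQC and DESeq2 1.32.0 are also listed, with mm10 and GRCh38 as builds. Per the labels' protocols, 300.0 ng of RNA was primed on the poly(A) tail with a stranded 3′ kit that adds a 6-base molecular identifier, and 151-base single reads were taken. The annotation, the strand setting and whether identifiers were collapsed are not given in the sources used here. Wilson intervals of shares cover counting error only; edgeR intervals include the spread between tumours.

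The 14 libraries were fitted together by genotype with edgeR 4.0.16 in R 4.3.3 (TMM factors, filter on low counts by group, two-sided quasi-likelihood F test, Benjamini-Hochberg adjustment over 13997 genes holding 99.0% of counts, called at an adjusted p under 0.05). The SE is the log2 fold change divided by the square root of F. Single values were compared by exact two-sided permutation over libraries. The fit was tested on simulated data with less spread between libraries and larger changes than the members had in the main fit. That test therefore does not show how well changes of the members' size would be detected. Gene positions and sequences come from GENCODE M21 (GRCm38), read in Python 3.11.15. No 2 libraries held identical values, and the highest correlation between libraries was 0.931.

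Named genes were the 7 family members, up to 2 tested genes with the smallest p from each list described, in DKO against WT and in both knockout groups against WT, and the 2 genes with the highest Pearson r (log2 CPM, prior count 2) for members averaging at least 10 CPM. The rule for the members uses no measured value, but the members, lists and tests were chosen with earlier results of these data known. Alternatives were RLE factors, no filter, DESeq2 1.42.0, the replicate number as a block, Y-linked and hepatocyte marker covariates, and each library left out. Those added after seeing the data were leaving out the 3 libraries above 100 CPM of Y-linked genes, and the permutation test of log2 CPM.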

Additional observations from a re-analysis of the deposited data

Results flagged for a closer look

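Of the 21 combinations of 7 genes and 3 groups, 3 held a library far from the rest of its group by Dixon's gap test at the 95% level, which by chance alone marks about 1 in 20 groups. Cdk16 stood at 65.8 CPM in CDK18KO 1, where the next library of the group was at 37.0 CPM. Cdk14 stood at 59.6 CPM in DKO 3, where the next was at 10.0 CPM. Ccny stood at 108.9 CPM in DKO 4, below the next library at 120.3 CPM, in a group that otherwise spanned 120.3 to 122.3 CPM. The gap test takes no account of counting error, and DKO 4 had 196 counts of Ccny.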

How the results depend on the processing

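The alternatives were read for 15 combinations of a tested member and a comparison. None gave an edgeR or DESeq2 adjusted p under 0.05 in these. The lowest was 0.129, for Cdk16 in DKO against WT. Cdk16, Cdk18 and Ccnyl1 kept their negative sign in each reported comparison under each alternative run. In DKO against WT, the unadjusted exact permutation test gave -0.79 and p = 0.0476 for Cdk16, and -0.63 and p = 0.043 against the intact tumours. The sign of Ccny in DKO against WT turned with RLE factors (-0.00844), DESeq2 (-0.00812) and the hepatocyte covariate (-0.25), and ranged from -0.0814 to 0.0366 with 1 library left out. For Ccny in CDK18KO against WT it was -0.0421 with the hepatocyte covariate and -0.0488 to 0.29 leaving 1 out. Cdk17 in CDK18KO against WT was -0.0204 with RLE, -0.0108 with DESeq2, -0.0687 with the hepatocyte covariate and -0.14 to 0.23 leaving 1 out, and in DKO against WT -0.0852 to 0.31. Cdk14 in DKO against WT was 0.0238 with the Y-linked covariate (SE 1.12) and 0.45 with the hepatocyte covariate (SE 0.97). In CDK18KO against WT it was 0.24 with the hepatocyte covariate (SE 0.82). Without the 3 libraries high in Y-linked genes, Cdk16 was -0.40 in DKO against the intact tumours, Cdk18 was -1.27 in the knockout tumours against WT, and Cdk14 was -0.95 in DKO and -2.01 in CDK18KO against WT. Cdk2 was 0.10 with the hepatocyte covariate in the 9 knockout tumours against WT. The cause was not tested.

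The number of genes called over the whole table was 1 in DKO against WT, 1 in CDK18KO against WT, 0 in DKO against CDK18KO (812 at an unadjusted p under 0.05), 13 in all knockout tumours against WT and 12 in DKO against the intact tumours. In that order it was 252, 173, 42, 716 and 187 with no filter, and 1033, 856, 84, 1478 and 98 by DESeq2. It was 2, 2, 0, 2 and 0 with the hepatocyte covariate, and 0 in each with the Y-linked covariate or without those 3 libraries. Leaving 1 library out gave 0 to 1, 0 to 74, 0 to 2, 0 to 32 and 0 to 29. The share difference ranged from -2.34 to -0.44 points for Cdk18 and from -11.2 to -2.86 points for Cdk16.

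Libraries that share a replicate number were not treated as paired in the main fit. Of 13 same-number pairs, 6 correlated above 0.1 in their deviations (-0.232 to 0.654). The median was 0.044 for these pairs and -0.0395 for pairs of unlike number, and 3 of 14 libraries correlated best with their own number. These values do not settle whether the number marks a shared batch. With the replicate number as a block, the calls were 438, 297, 0, 752 and 28 in the order above, and Cdk14 was -2.07 in DKO and -2.02 in CDK18KO against WT, still uncalled. Prkaa2 then passed the threshold, with edgeR adjusted p values of 0.0458 in DKO and 0.0248 in the 9 knockout tumours against WT.

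Depth limits Cdk15 and Cdk18 most, with 21 counts of Cdk15 in all and as few as 1 count of Cdk18 in a library.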
